A study of Mus musculus with 8 samples.

Results

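Histone modifying enzymes of the Kdm, Kmt, Setd and Hdac gene families were examined in the cortex of mice in which BAF155 and BAF170, scaffolding subunits of the chromatin remodeling BAF (mSWI/SNF) complex, were deleted. The members are the protein-coding genes whose symbol starts with Kdm, Kmt, Setd or Hdac and a digit, except Kdm5c, Kdm5d, Kdm6a and Kdm6b, and 41 genes of the 48709 identifiers counted met this rule. All 41 were among the 16525 genes kept by the filter on low counts and tested. RNA was sequenced from the cortex (dorsal telencephalon, dTel) of 4 dcKO_hGFAP-Cre and 4 control mice of the C57BL/6J background at P3, postnatal day 3. The mutants were BAF155 fl/fl; BAF170 fl/fl; hGFAP-Cre, and the methods describe control brains as BAF155 fl/+; BAF170 fl/+ with Cre, while the sample titles call them WT. In hGFAP-Cre mice a human GFAP promoter drives the recombinase in dTel progenitors, so cells in the dissected tissue that never expressed it keep both genes. The question was how loss of both scaffolding subunits changes the transcriptome of the early postnatal cortex. In bulk tissue, fewer cells of a type and less RNA per cell cannot be told apart.

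Histones carry methyl groups on lysines and acetyl groups that open chromatin. Lysine methyltransferases with a SET domain write methyl marks, such as H3K4 methylation at active promoters and enhancers or H3K36 methylation over transcribed genes, and the Kdm demethylases remove them with either a flavin-dependent or a JmjC catalytic domain. Histone deacetylases (Hdac) remove acetyl groups, mostly as catalytic subunits of corepressor complexes, and in the brain they take part in the timing of neuronal and glial differentiation.

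The total count per sample was between 21126713 and 32110285, and the members took 0.345% to 0.364% of the counts in controls and 0.325% to 0.377% in mutants. Levels are given in CPM, the TMM-normalized count of a gene scaled to 1 library total for all samples. Smarcc1 (BAF155) was 159 ± 11.2 CPM (SD, n = 4) in control and 81.2 ± 5.90 in mutant cortex, and Smarcc2 (BAF170) was 483 ± 14.7 and 283 ± 28.2, so both targeted genes were lower in the mutants. Marker lists of cell types were also compared. The summed level of 6 cortical projection neuron markers was 1403 to 1597 CPM in controls and 646 to 809 in mutants, and that of 5 oligodendrocyte precursor markers was 367 to 400 and 220 to 295. The sums were higher in mutants for 6 striatal projection neuron markers (87.5 to 138 CPM in controls, 326 to 616 in mutants), 6 interneuron markers (508 to 521 and 822 to 889) and 6 microglia markers (81.9 to 109 and 152 to 187). Endothelial markers summed to 138 to 182 and 74.5 to 141 CPM, and dividing cell markers to 100.3 to 128 and 115 to 133. Choroid plexus markers were between 3.42 and 13.4 CPM in controls and between 4.44 and 1159 in mutants, with 602 in mutant replicate 1 and 1159 in replicate 2. Radial glia and astrocyte markers were between 728 and 776 in controls and between 471 and 1122 in mutants. Mutant replicates 1, 2 and 4, at 543, 540 and 471, were below all controls, and mutant replicate 3, at 1122, was above them. Erythroid markers were between 53.5 and 73.1 CPM in controls and between 37.1 and 130.0 in mutants. By the test, 5 of 6 projection neuron, 5 of 5 oligodendrocyte precursor and 3 of 5 endothelial markers were lower, and 3 of 6 striatal, 6 of 6 interneuron, 4 of 6 microglia, 2 of 6 dividing cell, 1 of 5 choroid plexus and 1 of 6 radial glia and astrocyte markers were higher. None of the 5 erythroid markers was called, and no marker was at 0 in any sample. Over all genes tested, 18.9% were lower and 18.6% were higher. The part of these shifts in the members' values was not tested.

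Of the 41 members, 5 were higher and 11 were lower in the dcKO_hGFAP-Cre cortex at an adjusted p under 0.05, and 25 were not called. The 16 called members are 39.0% of the list, beside 37.5% of all genes tested. Members called higher are 12.2% of the list, beside 18.6% of all genes, and members called lower are 26.8%, beside 18.9%. The changes were small. The median absolute log2 fold change was 0.19 over the members and 0.29 over all genes, and among called genes it was 0.38 for members and 0.56 for all. Only Hdac1, Setd4, Setd7 and Kmt2e were called and differed by 0.5 or more on the log2 scale in either direction, which is 9.76% of the members beside 21.6% of all genes. The members were also better expressed, with a median of 74.0 CPM beside 20.1, and had a smaller median standard error, 0.10 beside 0.13. Genes of a matched level were not compared, so the part of the level in these differences was not tested. The 4 mutant values lay above all 4 control values for 4 members (16.7% of all genes) and below them for 5 (17.7% of all genes), so the groups did not overlap for 9 members, beside 34.4% of all genes. Without control replicate 1 they did not overlap for 17 members (41.5%, beside 43.4% of all genes) and without mutant replicate 4 for 14 (34.1%, beside 42.9%). The plot of the fold changes by role shows the order within each family.

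**Figure D1:**
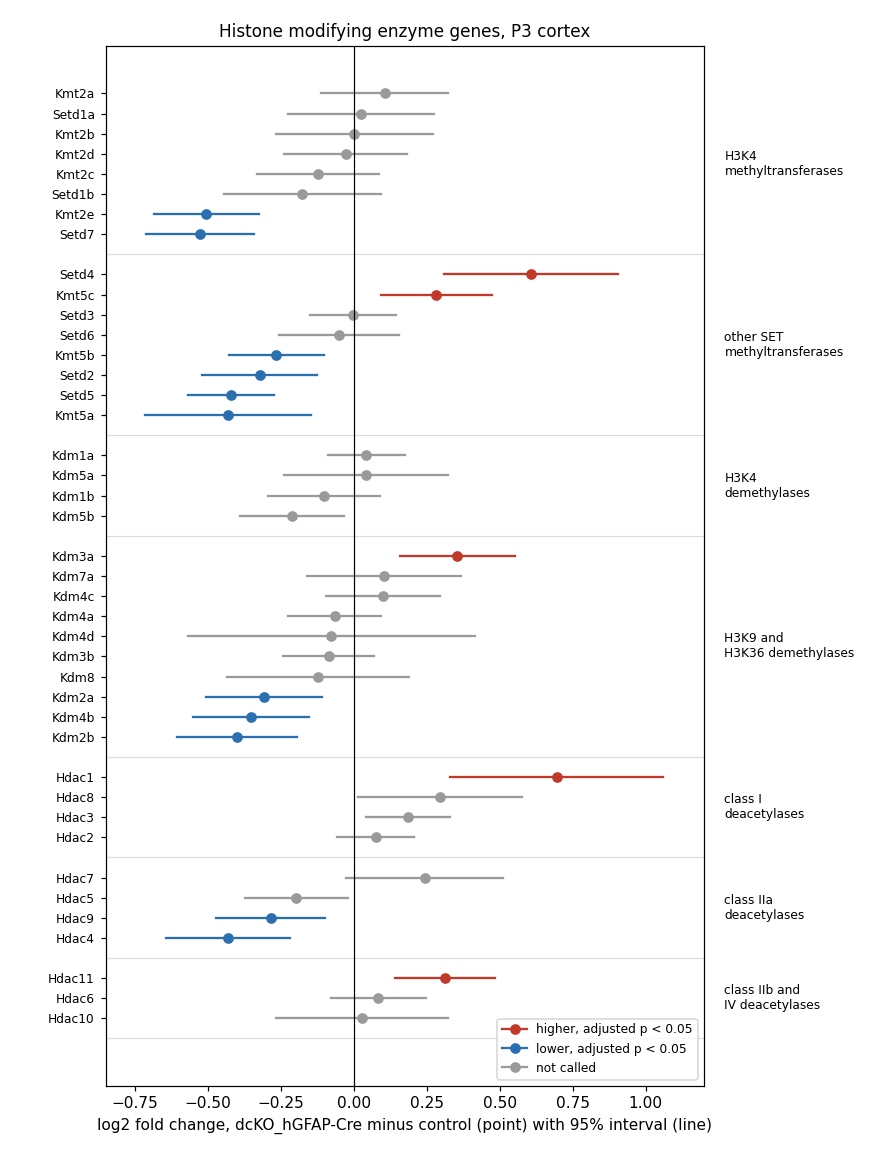
Log2 fold change of each of the 41 members between 4 dcKO_hGFAP-Cre and 4 control samples (point) with its 95% interval (line), sorted within roles. The 5 members called higher are red and the 11 called lower are blue, and all points lie between -0.53 and 0.70.

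The split of the calls depended on the scaling. With an offset for transcript length and GC content the members gave 10 higher and 6 lower calls (39.0%, beside 36.2% of all genes in that fit), and with library totals in place of TMM they gave 8 higher and 5 lower (31.7%, beside 40.5%). Higher and lower calls over all genes were not counted separately in these fits, so whether the shift is particular to the members is not known. The median log2 fold change of the members was -0.05 as reported, 0.06 with the offset and 0.07 with library totals, while that of all genes was 0.02, 0.01 and 0.15. Members have longer transcripts than most genes, with a median of 5179 bases beside 3260, and a median GC content of 50.6% beside 49.6%. Leaving out 1 sample at a time gave 3 to 6 higher and 5 to 12 lower calls. The lower calls were 6 without control replicate 2, 5 without control replicate 3 and 7 without mutant replicate 2 or 3, and the higher calls were 3 without control replicate 2, mutant replicate 1 or mutant replicate 2. In these fits the share of all genes called also differed from the reported 37.5%. It was 30.4% without control replicate 2 and 27.6% without control replicate 3, where 9 of the 41 members were called each time. It was 29.8% without mutant replicate 1 and 29.9% without mutant replicate 2, beside 26.8% and 24.4% of the members, and 38.7% without mutant replicate 3, beside 29.3%. Of the 16 called members, 7 held their call in all 17 alternatives, namely the 3 higher members Hdac1, Setd4 and Hdac11 and the 4 lower members Kmt2e, Setd7, Setd5 and Kdm2b. The same count was not made over all called genes, so whether members held more or less often is not known. Within each of the 3 sequencing lanes, all of which hold both groups, all 16 called members differed in the direction of their call. Lanes 6 and 7 hold 1 sample of each group, so these within-lane differences have no test. The 16 members were called from these same samples, so agreement in direction was likely in advance and adds no support. It was not counted over all called genes.

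**Figure D2:**
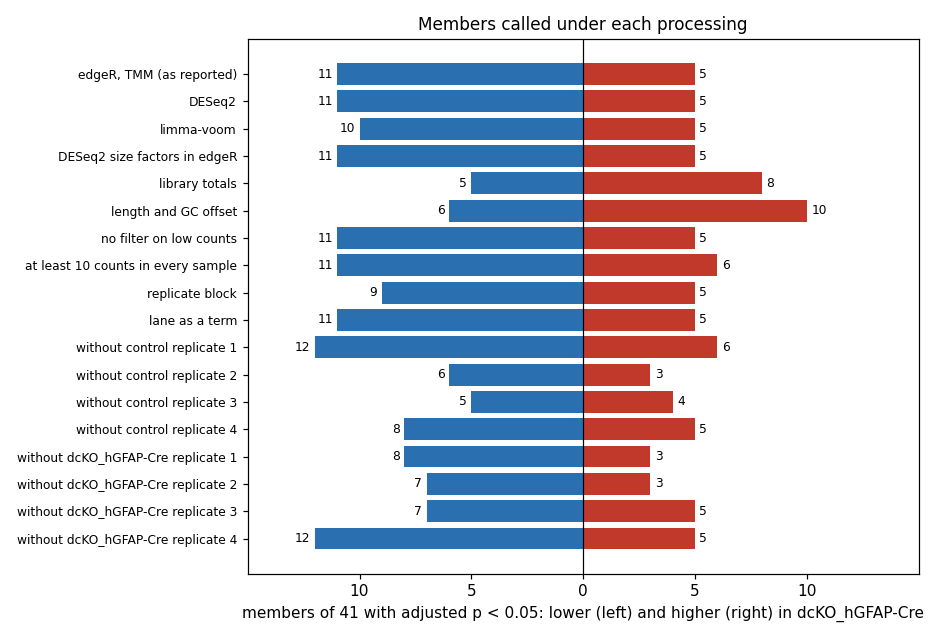
Number of the 41 members with an adjusted p under 0.05 that were lower (bars to the left) or higher (bars to the right) in dcKO_hGFAP-Cre, for the reported processing and each of the 17 alternatives. Lower calls outnumber higher calls as reported (11 and 5) and are outnumbered with library totals (5 and 8) and with the length and GC offset (6 and 10). The split over all genes was not counted for the alternatives.

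To show sequence next to the measurements, promoters were taken for the 3 members that rose most and the 3 that fell most among those called. RefSeq windows (GRCm38.p6) were found for Setd7, Hdac4, Setd4 and Kdm3a and not for Kmt2e and Hdac1. The window is the 250 bases before the annotated start, and bases that lie in an exon of the same gene in GENCODE were cut, which left 194, 250, 158 and 177 bases. The Hdac4 start lies 15358 bases from the outermost Hdac4 start in GENCODE, and the Setd4 start lies 248 bases from the outermost Setd4 start. The printed Hdac4 and Setd4 stretches therefore lie inside the annotated genes, outside their exons. Capitals mark matches on either strand to 8 motifs: the GC box GGGCGG, the CCAAT box CCAAT, the ETS core CCGGAAG, the NRF1 core TGCGCATG, the CRE TGACGTCA, the E-box CACGTG, the YY1 motif AAGATGGCG and the TATA box TATAAA. None of these motifs lies inside another.
Setd7, chr3:51560880-51561073, minus strand: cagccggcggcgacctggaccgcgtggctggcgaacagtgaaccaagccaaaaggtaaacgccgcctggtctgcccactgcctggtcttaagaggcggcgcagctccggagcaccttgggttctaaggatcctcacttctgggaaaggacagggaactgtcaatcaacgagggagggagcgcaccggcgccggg
Hdac4, chr1:92180342-92180591, minus strand: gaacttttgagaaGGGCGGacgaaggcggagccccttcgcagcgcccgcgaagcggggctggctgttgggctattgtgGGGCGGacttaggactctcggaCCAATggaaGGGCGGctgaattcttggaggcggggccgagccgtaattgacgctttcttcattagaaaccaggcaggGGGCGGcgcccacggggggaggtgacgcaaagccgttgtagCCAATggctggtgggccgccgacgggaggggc
Setd4, chr16:93603816-93603973, minus strand: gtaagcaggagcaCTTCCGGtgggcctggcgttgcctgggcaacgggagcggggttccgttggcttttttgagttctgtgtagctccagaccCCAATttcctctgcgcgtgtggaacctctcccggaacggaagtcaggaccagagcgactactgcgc
Kdm3a, chr6:71632991-71633167, minus strand: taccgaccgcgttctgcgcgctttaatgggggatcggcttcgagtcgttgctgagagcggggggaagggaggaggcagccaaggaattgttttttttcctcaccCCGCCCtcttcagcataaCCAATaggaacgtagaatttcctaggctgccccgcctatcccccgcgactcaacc
The Hdac4 stretch holds 4 GC boxes and 2 CCAAT boxes, the Setd4 stretch 1 CCAAT box and 1 ETS core, the Kdm3a stretch 1 GC box and 1 CCAAT box, and the Setd7 stretch none of the 8. In all, 31 members have 45 windows of 250 bases, of which 60% hold a GC box, 42.2% a CCAAT box, 11.1% an ETS core and 4.44% a TATA box. Among the 32851 windows of all genes the shares were 32.7%, 33.9%, 6.91% and 12.4%. The NRF1 core was in 2.22% of member windows and 1.79% of all windows, the E-box in 2.22% and 6.02%, and the CRE and the YY1 motif were in 0% of member windows beside 1.55% and 0.606%. Members with several starts have several windows that can overlap, and these shares were not tested.

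Among the 8 genes grouped as H3K4 methyltransferases, 2 were lower, none was higher and 6 were not called. The share called was 25%, beside 37.5% of all genes. Both that fell lie outside the core group of large promoter and enhancer enzymes. Setd7 (ENSMUSG00000037111, mm10 chr3:51515319-51560879, minus strand) encodes an enzyme that monomethylates H3K4 and also non-histone proteins. Its level was 63.4, 81.5, 64.4 and 65.3 CPM in control replicates 1 to 4 and 47.5, 46.9, 50.5 and 45.7 CPM in mutant replicates 1 to 4. All mutants were below all controls, and control replicate 2 stood above the other controls. The log2 fold change was -0.53 ± 0.09 (SE) with an adjusted p of 0.00106, a 1.44-fold lower level, and it was between -0.57 and -0.44 when 1 sample at a time was left out. Setd7 shares 131 exon bases, 1.2% of its exons, with 5031434O11Rik on the opposite strand, which rose from 6.27 ± 1.57 to 10.4 ± 1.85 CPM (adjusted p = 0.00832).

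Kmt2e (ENSMUSG00000029004, mm10 chr5:23434441-23504235, plus strand), also known as MLL5, encodes a SET and PHD finger protein that binds methylated H3K4 and has no clear histone methyltransferase activity. It was at 212, 213, 221 and 201 CPM in control replicates 1 to 4 and at 157, 139, 129 and 172 CPM in mutant replicates 1 to 4. The groups did not overlap, with mutant replicates 2 and 3 the lowest. This gave a log2 fold change of -0.50 ± 0.09 (SE, adjusted p = 0.00121). Kmt2e shares 9.3% of its exon bases with Srpk2 on the opposite strand, whose level of 206 ± 16.7 CPM in controls and 223 ± 15.2 in mutants was not called (adjusted p = 0.285).

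The enzymes that form the catalytic core of the COMPASS complexes were not called. Kmt2a, which acts at promoters of developmental genes, was 148 ± 12.6 CPM in controls and 159 ± 26.1 in mutants, and the 95% interval of its log2 fold change ran from -0.11 to 0.32. Its closest relative Kmt2b was 142 ± 23.6 and 142 ± 23.8 CPM (-0.27 to 0.27). The enhancer enzymes Kmt2c and Kmt2d were 114 ± 16.6 and 105 ± 9.47 CPM (-0.33 to 0.09) and 94.5 ± 13.5 and 92.7 ± 10.2 CPM (-0.24 to 0.18). Setd1a and Setd1b, which account for much of the trimethylated H3K4 at active promoters, were 29.9 ± 1.73 and 30.4 ± 5.57 CPM (-0.22 to 0.27) and 78.5 ± 10.1 and 69.5 ± 13.9 CPM (-0.44 to 0.09). With the length and GC offset Kmt2a and Kmt2d were called higher, at 0.32 (adjusted p = 0.00323) and 0.28 (adjusted p = 0.0185). Of the exon bases of Setd1a, 51.8% are shared with Gm49388 on the same strand, which is listed at 0 in every sample. How reads in shared exons were counted is not given in the sources used here, so the level of Setd1a is uncertain.

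Of the 8 other SET domain methyltransferases 6 were called, 2 higher and 4 lower, which is 75% beside 37.5% of all genes. Of the 6, only Setd4 and Setd5 held their call in all 17 alternatives. Setd4 (ENSMUSG00000022948, mm10 chr16:93583457-93604063, minus strand) was at 11.1, 8.18, 7.94 and 10.3 CPM in control replicates 1 to 4 and at 15.4, 14.5, 11.2 and 16.2 CPM in mutant replicates 1 to 4. Mutant replicate 3 was just above the highest control and the others were well above it. The log2 fold change was 0.61 ± 0.15 (SE, adjusted p = 0.00801), a 1.52-fold higher level.

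Another 3 genes of this group had groups that did not overlap, and their values by sample were added after they had been seen. Setd5 (ENSMUSG00000034269, mm10 chr6:113077365-113153435, plus strand) encodes a SET domain protein that is similar to Kmt2e and associates with the Hdac3 and NCoR corepressors. It was at 210.4, 217, 206 and 182 CPM in control replicates 1 to 4 and at 149.7, 155, 149 and 155 CPM in mutant replicates 1 to 4. The mutants were close together and all lay below the lowest control, with a log2 fold change of -0.42 ± 0.08 (SE, adjusted p = 0.00105). With the length and GC offset it was -0.25 (adjusted p = 0.00826).

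Setd2 (ENSMUSG00000044791, mm10 chr9:110532597-110618633, plus strand) is the main enzyme for H3K36 trimethylation. It was at 148, 162, 156 and 146 CPM in control replicates 1 to 4 and at 136, 112, 102 and 139.6 CPM in mutant replicates 1 to 4. Mutant replicates 1 and 4 came close to the lowest control. Its log2 fold change was -0.32 ± 0.10 (SE, adjusted p = 0.0238), and the call was lost with library totals (adjusted p = 0.134) and without control replicate 2 (0.0636), control replicate 3 (0.0593) or mutant replicate 2 (0.0727).

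The enzymes of H4K20 methylation moved in different directions. Kmt5a, which places the first methyl group and is needed for the cell cycle, was 40.2 ± 9.26 CPM in controls and 29.8 ± 1.09 in mutants, with a log2 fold change of -0.43 ± 0.15 (SE, adjusted p = 0.0348). All of its mutant values lay above control replicate 1 at 27.2 CPM, and in leave-one-out fits it was called only without that replicate. The largest adjusted p of these fits was 0.108, without control replicate 3, and the values without control replicates 2 and 4 were 0.0641 and 0.0964. Without mutant replicates 1 to 4 they were 0.0608, 0.0727, 0.0511 and 0.0512. The call was also lost with library totals (0.0975) and with limma-voom (0.0509).

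Kmt5b, which adds the next methyl groups, was 134 ± 8.64 CPM in controls and 112 ± 9.62 in mutants (log2 fold change -0.26 ± 0.08, adjusted p = 0.0243). The call was lost with library totals (adjusted p = 0.183), with the offset (0.143), with the replicate number as a block (0.0536), without control replicates 2 (0.0529), 3 (0.0766) or 4 (0.0523) and without mutant replicate 3 (0.0525). Its paralog Kmt5c (ENSMUSG00000059851, mm10 chr7:4740115-4747514, plus strand) was at 42.9, 35.4, 36.6 and 43.1 CPM in control replicates 1 to 4 and at 48.0, 46.1, 44.6 and 53.6 CPM in mutant replicates 1 to 4. All mutants were above all controls, with a log2 fold change of 0.28 ± 0.10 (SE, adjusted p = 0.0356). Its call was lost without control replicates 2 (0.107) or 3 (0.111) and without mutant replicates 1 (0.0880), 2 (0.0624) or 4 (0.0710). Setd3, an actin histidine methyltransferase, was 76.7 ± 4.46 and 76.5 ± 3.77 CPM, and Setd6, which methylates the NF-kappaB subunit RelA, was 18.4 ± 1.18 and 17.8 ± 1.69 CPM. Neither was called, and their approximate 95% intervals ran from -0.15 to 0.15 and from -0.26 to 0.15.

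**Figure D3:**
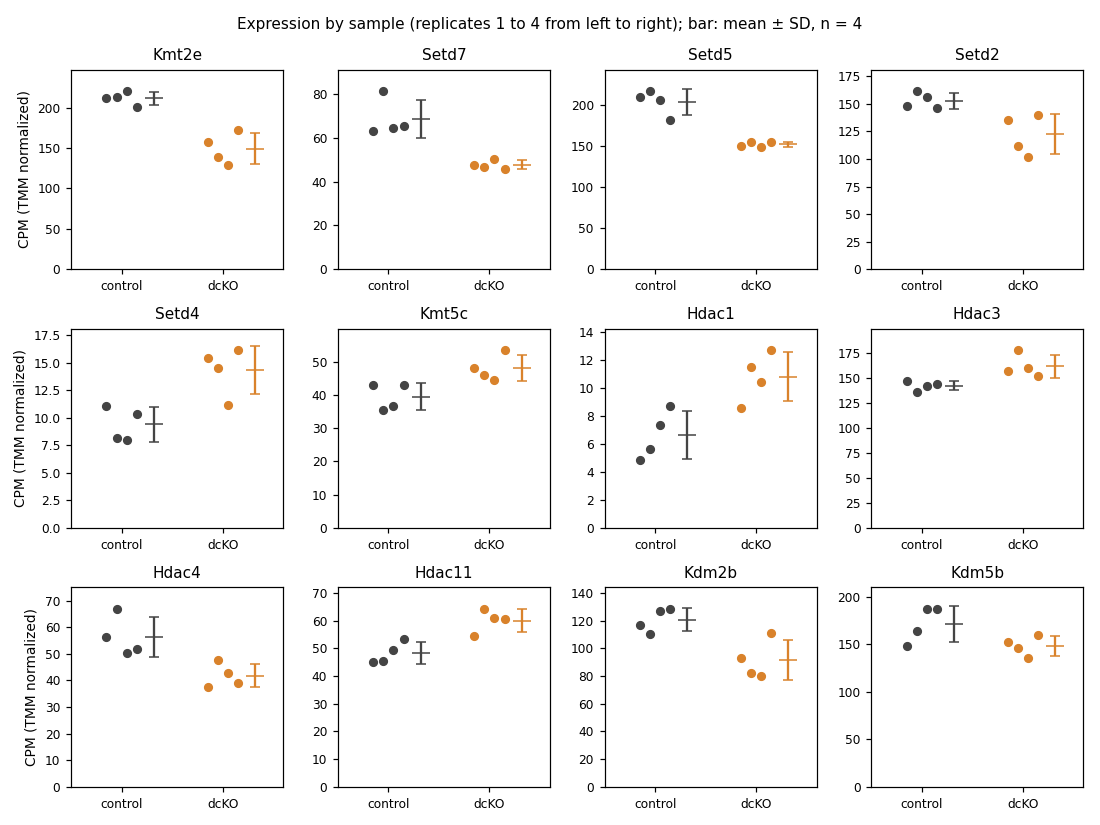
CPM of 12 members in each sample (points, replicates 1 to 4 from left to right) with the mean and SD of 4 control (grey) and 4 dcKO_hGFAP-Cre samples (orange), each panel starting at 0. The groups do not overlap for Kmt2e, Setd7, Setd5, Setd2, Setd4, Kmt5c, Hdac3, Hdac4 and Hdac11, and they overlap for Hdac1, Kdm2b and Kdm5b.

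None of the 4 H3K4 demethylases was called, beside 37.5% of all genes. Kdm1a (LSD1), the flavin-dependent enzyme of the CoREST complex, varied little among controls and was 187 ± 1.31 CPM in them and 193 ± 8.76 in mutants. The approximate 95% interval of its log2 fold change ran from -0.09 to 0.17. Its relative Kdm1b was 43.7 ± 3.03 and 40.7 ± 4.69 CPM (-0.29 to 0.09). Kdm5a, a JmjC enzyme that removes trimethylation, was 58.5 ± 13.1 and 60.1 ± 6.35 CPM (-0.24 to 0.32). Kdm5b (ENSMUSG00000042207, mm10 chr1:134560171-134635285, plus strand) had the smallest p of the group. It was at 148, 164, 187 and 187 CPM in control replicates 1 to 4 and at 152, 146, 135 and 160.0 CPM in mutant replicates 1 to 4. Mutant replicates 2 and 3 were below all controls and the other two were not. The log2 fold change was -0.21 ± 0.09 (SE, adjusted p = 0.0870). It passed the threshold without control replicate 1 (adjusted p = 0.0256) or mutant replicate 4 (0.0495).

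Of the 10 H3K9 and H3K36 demethylases, 1 was higher, 3 were lower and 6 were not called (40% called, beside 37.5% of all genes). The groups overlapped for all 10, while they did not overlap for 34.4% of all genes. Kdm2b (ENSMUSG00000029475, mm10 chr5:122870665-122989823, minus strand) binds unmethylated CpG islands and brings a variant Polycomb repressive complex to them. It was at 117, 111, 127 and 129 CPM in control replicates 1 to 4 and at 93.4, 82.0, 79.9 and 111 CPM in mutant replicates 1 to 4. Mutant replicate 4 was at the level of the lowest control and the other mutants were below it. The fitted log2 fold change was -0.40 ± 0.10 (SE, adjusted p = 0.0103), and with the length and GC offset it was -0.25 (adjusted p = 0.0349). Gm12397, a processed pseudogene, matches 11.9% of a Kdm2b transcript at 100% identity and was at 0.0463 CPM in controls and 0.0544 in mutants. Rnf34 and A930024E05Rik, on the opposite strand, share 5.8% and 1.8% of its exon bases.

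Kdm2a, the paralog of Kdm2b, was 104 ± 9.56 CPM in controls and 84.2 ± 10.8 in mutants (log2 fold change -0.31 ± 0.10, adjusted p = 0.0308). Its call was lost with library totals (adjusted p = 0.151), with the offset (0.198) and with the replicate number as a block (0.0504), and it was held in only 2 of the 8 leave-one-out fits. Those that lost it were without control replicates 2 (0.0519), 3 (0.106) or 4 (0.0510) and without mutant replicates 1 (0.0595), 2 (0.0617) or 3 (0.0617). Kdm4b, which acts on trimethylated H3K9, was 161 ± 20.8 and 126 ± 11.5 CPM (log2 fold change -0.35 ± 0.10, adjusted p = 0.0162). It lost the call with library totals (0.0728), with the offset (0.0787) and without control replicate 3 (0.0598).

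Kdm3a, which removes mono- and dimethylation of H3K9, was the 1 member of this group that rose, and its values by sample were added after they had been seen. It was at 50.1, 42.8, 47.6 and 44.4 CPM in control replicates 1 to 4 and at 65.4, 63.4, 49.0 and 58.8 CPM in mutant replicates 1 to 4. Mutant replicate 3 was below the highest control, and the other mutants were above all controls (log2 fold change 0.36 ± 0.10, adjusted p = 0.0152). The call was held with library totals and with the offset, and was lost without control replicate 2 (0.0512) or mutant replicates 1 (0.0640) or 2 (0.0543). Its paralog Kdm3b was 94.2 ± 6.80 and 88.7 ± 5.82 CPM (approximate 95% interval -0.24 to 0.07). Gm26538 on the opposite strand shares 24.6% of the exon bases of Kdm3b and was at 0.252 CPM in controls and 0.362 in mutants. Among the enzymes that act on trimethylated H3K9 and H3K36, Kdm4a was 179 ± 11.05 and 171 ± 14.1 CPM (-0.22 to 0.09) and Kdm4c was 31.6 ± 2.73 and 33.9 ± 3.38 CPM (-0.09 to 0.30). Kdm4d was the weakest member, with 0.885 ± 0.156 CPM in controls and 0.843 ± 0.173 in mutants (-0.57 to 0.42). Kdm7a, which also acts on H3K27, was 14.5 ± 0.990 and 15.6 ± 2.89 CPM (-0.16 to 0.37), and Kdm8 was 4.40 ± 0.646 and 4.04 ± 0.260 CPM (-0.44 to 0.19).

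The class I deacetylases Hdac1 and Hdac2 overlap in function as catalytic subunits of the NuRD, Sin3 and CoREST complexes. Hdac1 (ENSMUSG00000028800, mm10 chr4:129516104-129542713, minus strand) had the largest rise of the 41 members. It was at 4.88, 5.67, 7.34 and 8.68 CPM in control replicates 1 to 4 and at 8.59, 11.5, 10.4 and 12.7 CPM in mutant replicates 1 to 4. Mutant replicate 1 lay just below control replicate 4, and the other mutants were above all controls. The log2 fold change was 0.70 ± 0.19 (SE, adjusted p = 0.0113), and the largest adjusted p among the 17 alternatives was 0.0396. Gm10093, a processed pseudogene on chromosome 17, matches 70.9% of an Hdac1 transcript at 99.4% identity. How reads that match several genes were counted is not given in the sources used here, so the level of Hdac1 is uncertain. Gm10093 was at 0.199 ± 0.0929 CPM in controls and 0.411 ± 0.344 in mutants, and the sum of both genes was 6.84 ± 1.65 and 11.2 ± 1.42 CPM.

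Hdac2 was 220.2 ± 9.54 CPM in controls and 232 ± 5.01 in mutants and was not called (approximate 95% interval -0.06 to 0.21). With library totals it was called higher, at 0.20 (adjusted p = 0.0248), and with the offset its log2 fold change was -0.03. Hdac3 (ENSMUSG00000024454, mm10 chr18:37935844-37955016, minus strand), the enzyme of the NCoR and SMRT complexes, was added to the sample values because its groups did not overlap. It was at 147, 136, 143 and 144 CPM in control replicates 1 to 4 and at 157, 178, 160.0 and 152 CPM in mutant replicates 1 to 4. All mutants were above all controls, yet its log2 fold change of 0.19 ± 0.07 (SE) had an adjusted p of 0.0651. It passed the threshold with library totals (0.00561), with the offset (0.0479), with a minimum of 10 counts in every sample (0.0431) and without mutant replicate 4 (0.0271). Hdac8, which deacetylates cohesin, was 7.47 ± 0.557 and 9.15 ± 1.61 CPM (adjusted p = 0.123), and it passed with library totals (0.0358).

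Class IIa deacetylases shuttle between nucleus and cytoplasm and bind Mef2 transcription factors. Of the 4, 2 were lower and none was higher (50% called, beside 37.5% of all genes). Hdac4 (ENSMUSG00000026313, mm10 chr1:91928779-92195699, minus strand) was at 56.4, 66.9, 50.4 and 51.8 CPM in control replicates 1 to 4 and at 37.7, 47.5, 42.8 and 39.1 CPM in mutant replicates 1 to 4. All mutants were below all controls, and the replicate numbered 2 was the highest in both groups. edgeR gave a log2 fold change of -0.43 ± 0.11 (SE, adjusted p = 0.00832), and with the length and GC offset it was -0.21 with an adjusted p of 0.206. Gm26720 on the opposite strand, which shares 22.4% of the exon bases of Hdac4, is listed at 0 in every sample.

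Hdac9 was 53.7 ± 5.23 CPM in controls and 44.1 ± 3.69 in mutants (log2 fold change -0.28 ± 0.09, adjusted p = 0.0328). Its call was lost with library totals (adjusted p = 0.161), with the offset (0.146), and without control replicates 2 (0.0794) or 3 (0.102) or mutant replicates 1 (0.0943), 2 (0.0523) or 3 (0.0558). Hdac5 was 175 ± 18.7 and 153 ± 11.8 CPM (-0.20 ± 0.09, adjusted p = 0.105) and passed the threshold without mutant replicate 4 (0.0380). Hdac7 was 54.0 ± 10.9 and 63.9 ± 8.53 CPM (0.24 ± 0.14, adjusted p = 0.181) and was called higher with the offset (0.0168) and without control replicate 1 (0.0217).

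Hdac11 (ENSMUSG00000034245, mm10 chr6:91156665-91174692, plus strand), the 1 class IV enzyme, which also removes fatty acyl groups from lysines, was at 45.0, 45.3, 49.4 and 53.2 CPM in control replicates 1 to 4 and at 54.3, 64.2, 60.9 and 60.4 CPM in mutant replicates 1 to 4. The highest control was just below the lowest mutant. The log2 fold change was 0.31 ± 0.09 (SE, adjusted p = 0.0141), and the largest adjusted p among the alternatives was 0.0429. The class IIb enzymes were not called. Hdac6, the tubulin deacetylase, was 98.1 ± 2.01 and 104 ± 11.1 CPM (approximate 95% interval -0.08 to 0.25) and passed with the offset (0.23, adjusted p = 0.0163). Hdac10, a polyamine deacetylase, was 44.0 ± 8.04 and 44.8 ± 8.46 CPM (-0.26 to 0.32).

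Ratios of related members within each sample do not depend on the factor that scales each library. They were not adjusted for transcript length or GC content, in which the members of a pair can differ. In all, 15 pairs were compared with an exact two-sided permutation test over the 70 arrangements of the samples, whose smallest p is 0.0286. In 3 pairs the groups did not overlap and the exact p was 0.0286. The log2 ratio of Kmt5b to Kmt5c was 1.77 ± 0.22 (SD, n = 4) in controls and 1.22 ± 0.16 in mutants, a difference of -0.55, so that Kmt5b counts were 3.41-fold and 2.33-fold those of Kmt5c. The log2 ratio of Kdm3a to Kdm3b went from -1.03 ± 0.13 to -0.59 ± 0.14, a difference of 0.44. That of Kdm4a to Kdm4b went from 0.16 ± 0.14 to 0.44 ± 0.08, a difference of 0.28. In the fit with the length and GC offset, the log2 fold changes were -0.15 for Kmt5b and 0.37 for Kmt5c. They were 0.40 for Kdm3a and 0.11 for Kdm3b, and 0.06 for Kdm4a and -0.17 for Kdm4b. Hdac1 to Hdac2 had the largest difference, 0.64 (from -5.08 ± 0.34 to -4.44 ± 0.24), but 1 mutant lay among the controls (exact p = 0.0571). Hdac1 counts were 0.0295 of those of Hdac2 in controls and 0.0462 in mutants, ratios that carry the uncertainty of the Hdac1 level given above. In the other 11 pairs the difference was between -0.45 (Hdac5 to Hdac7, exact p = 0.114) and 0.27 (Kdm5a to Kdm5b, exact p = 0.343). No p of the 15 stays under 0.05 after Benjamini-Hochberg adjustment, the smallest adjusted value being 0.143.

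**Figure D4:**
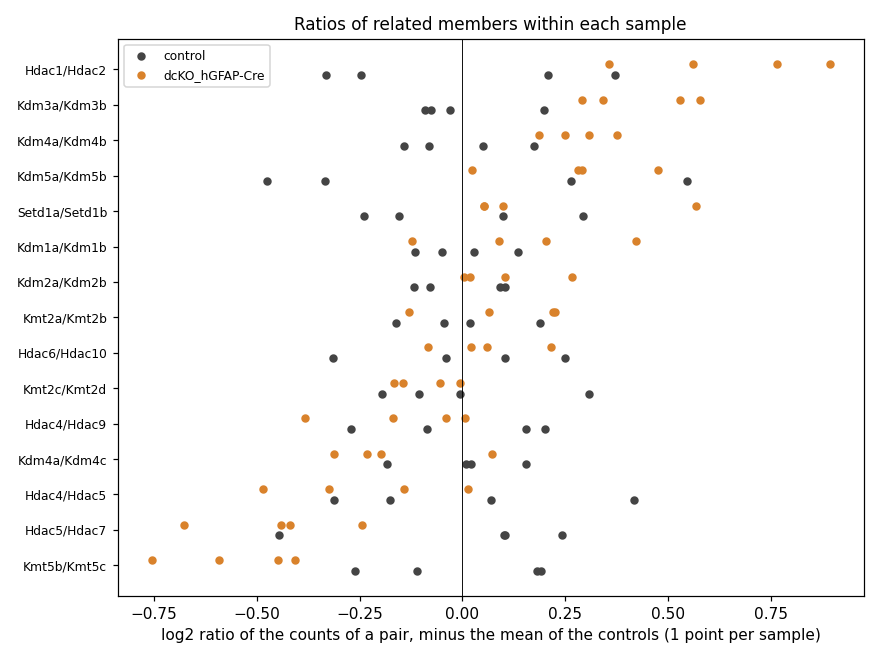
Log2 ratio of the counts of 15 pairs of related members in each sample, minus the mean of the 4 controls, with 1 point per sample (controls grey, dcKO_hGFAP-Cre orange). The groups separate for Kmt5b/Kmt5c (difference of means -0.55), Kdm3a/Kdm3b (0.44) and Kdm4a/Kdm4b (0.28).

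Levels between members were compared per kilobase of exon. The length joins all annotated exons of a gene, and which of them are used in this tissue was not examined, so the order is approximate. In control cortex Hdac2 was highest at 49.2 ± 2.13 CPM per kb (SD, n = 4), followed by Kdm1a (36.1 ± 0.253), Hdac3 (35.1 ± 1.17), Kdm4b (32.8 ± 4.26) and Kdm4a (30.9 ± 1.91). From Kdm1a to Kdm4a, neighbours in this order differ by less than the sum of their SDs. Hdac1 was far down the order at 1.93 ± 0.494 CPM per kb, at rank 36 of 41 in controls and rank 34 in mutants (3.13 ± 0.507). If reads that also match Gm10093 were left out of the counts, the level and rank of Hdac1 would be too low, and this was not tested. Hdac3 moved from rank 3 to rank 2 and Kmt2e from rank 6 to rank 10. Kdm4d was last in both groups, at 0.309 ± 0.0544 and 0.295 ± 0.0606 CPM per kb.

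Genes that work with the members were examined as 7 lists, of which 80 genes were found and 78 tested. Of these, 9 were higher, 14 were lower and 55 were not called, so 29.5% were called, beside the 37.5% of all genes. Without mutant replicate 2 the calls were 15, beside 29.9% of all genes in that fit. In the corepressor complexes that hold the class I deacetylases, 3 of 25 subunits were higher and 5 lower (32% called). The NuRD subunits Gatad2b and Gatad2a were lower, with log2 fold changes of -0.57 ± 0.08 (SE, adjusted p = 0.000162) and -0.44 ± 0.08 (adjusted p = 0.00158), respectively. Rest, which recruits CoREST to neuronal genes, was higher at 0.43 ± 0.12 (adjusted p = 0.0136), and the histone chaperone Rbbp4, a subunit of both NuRD and Sin3, was higher at 0.39 ± 0.09 (adjusted p = 0.00594).

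Among 11 COMPASS partners, 2 were higher and 1 was lower. Dpy30, a core subunit of every COMPASS complex, rose from 32.8 ± 1.95 to 50.2 ± 4.80 CPM (0.61 ± 0.09, adjusted p = 0.000318), Psip1 rose by 0.26 and Men1, a subunit of the Kmt2a and Kmt2b complexes, fell by 0.33 on the log2 scale. Of 15 other lysine methyltransferases 4 were lower, namely Prdm2 (-0.59 ± 0.15), Smyd3 (-0.41 ± 0.08) and the H3K36 enzymes Ash1l (-0.30 ± 0.10, adjusted p = 0.0390) and Nsd1 (-0.27 ± 0.09, adjusted p = 0.0351). The 1 that was higher, named after its value was seen, was Ehmt2 (G9a, an H3K9 enzyme) at 0.24 ± 0.08 (adjusted p = 0.0413). Of the 8 leave-one-out fits, Ash1l held its call in 1, Ehmt2 in 2, Nsd1 in 3 and Men1 in 4. Psip1 held it in 7, and Dpy30, Prdm2 and Smyd3 held it in all 8. Of 6 other JmjC proteins none was higher and 3 were lower, namely Riox1 (-0.51 ± 0.11), the H3K9 demethylase Phf8 (-0.51 ± 0.12) and Jmjd1c (-0.49 ± 0.13). Of 7 sirtuins, the NAD-dependent deacylases, only the mitochondrial Sirt4 was called, at 0.80 ± 0.13 (adjusted p = 0.000582). Of 10 histone acetyltransferases, Kat2b (0.64 ± 0.11) and Hat1 (0.39 ± 0.10) were higher and none was lower. Of 4 class IIa deacetylase partners tested, Mef2c was lower, from 1681 ± 145 CPM in controls to 619 ± 32.1 in mutants (-1.44 ± 0.08), and the others were not called. The shares called were 27.3% of the COMPASS partners, 33.3% of the other lysine methyltransferases and 50% of the other JmjC proteins. They were 14.3% of the sirtuins, 20% of the histone acetyltransferases and 25% of the class IIa partners, beside 37.5% of all genes.

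**Figure D5:**
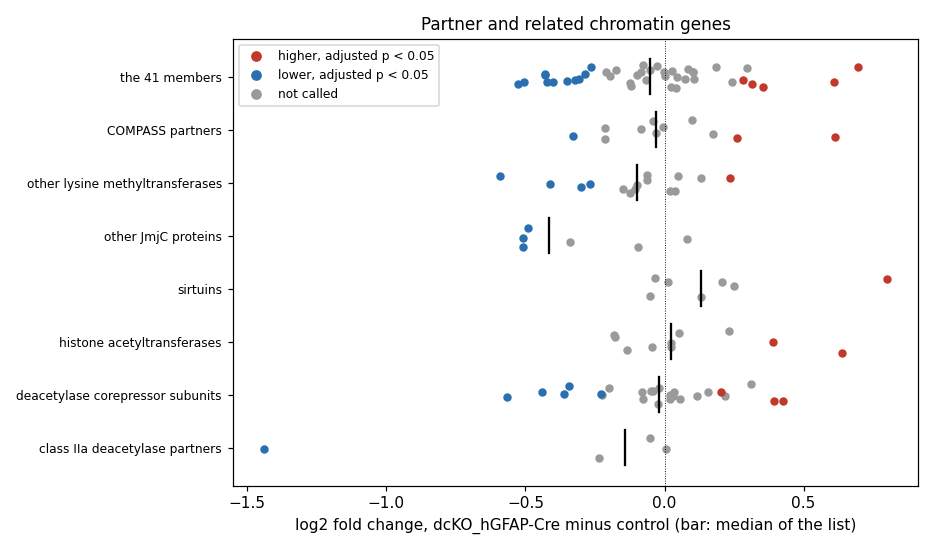
Log2 fold change of the 41 members and of the 78 tested genes in 7 lists of partners and related enzymes (points, with red called higher and blue called lower) and the median of each list (bar). Most points lie within 0.5 of 0, and Mef2c at -1.44 lies apart.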

How the data were processed

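RNA of 4 dcKO_hGFAP-Cre and 4 control cortices was sequenced with the TruSeq RNA v2 kit, which does not mark strand. The authors used mm10 as the genome and featureCounts for counting, and the values they deposited are raw counts per gene, with no normalization. The aligner, annotation, strand setting and rule for reads that match several genes are not given in the sources used here. Of 48709 Ensembl identifiers 48349 were matched to GENCODE M21, and 16525 genes passed edgeR's filter (minimum count 10). Counts were tested with edgeR 4.0.16 (R 4.3.3), TMM, the quasi-likelihood F test and no covariate, and p was adjusted over all 16525 genes (Benjamini-Hochberg, threshold 0.05). Intervals use 1.96 SE, with no allowance for the few samples, so they are approximate and narrower than the F test would give. For Hdac8 the interval of 0.01 to 0.58 leaves out 0, while the unadjusted p of the F test was 0.0611. Copies of member transcripts were searched with minimap2 (at least 300 aligned bases and 90% identity). Ratios were taken of counts plus 0.5. Alternatives were DESeq2 1.42.0, limma 3.58.1 (voom), 3 scalings, 2 filters, a replicate block, a lane term and leaving out each sample. The length and GC offset covered 16480 genes with known values. The tests were tried on simulated counts first. Replicates differed by at least 9.35 times the counting variance, and each was treated as 1 sample. The sources do not say whether samples came from separate litters, so p-values measure the spread between these samples.

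The members and lists were chosen with earlier results of these data known. Values are given sample by sample for called members that differ by 0.5 or more on the log2 scale and, for roles with none, the member with the smallest p, and those added after their values were seen are named as such. Of each partner list, the gene with the smallest p and up to 3 more with the largest called changes are named. Protein sequences were not used here.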

Additional observations from a re-analysis of the deposited data

Results flagged for a closer look

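In 86 groups of 4 samples examined (each member in each group, and the targeted genes), 4 held a sample far from the other 3 by Dixon's ratio of the gap to the range at the 95% critical value, and chance flags about 4.3. Control replicate 2 was high for Setd7, at 81.5 CPM (0.898 of the range). Mutant replicate 4 was high for Hdac5, at 170.6 CPM (0.982 of the range), and without it Hdac5 was called lower at -0.24 (adjusted p = 0.0380). Mutant replicate 3 was high for Setd3, at 82.2 CPM (0.890 of the range), and mutant replicate 2 was high for Setd6, at 20.3 CPM (0.871 of the range). Setd7 stayed called without control replicate 2.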

How the results depend on the processing

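The members gave 5 higher and 11 lower calls as reported, 10 and 6 with the length and GC offset, and 8 and 5 with library totals, and their median log2 fold change of -0.051 became 0.0649 and 0.0687 in these fits. The split over all genes was counted only for the reported fit. When 1 sample at a time was left out, the higher calls were between 3 and 6 and the lower calls between 5 and 12. In these fits 27.6% to 39.1% of all genes were called. The members without overlap were between 9 and 17. The called genes of the partner lists were between 15 and 28, beside 23 as reported. They were 15 without mutant replicate 2 (29.9% of all genes called) and 28 without mutant replicate 4 (39.1%). The members without overlap were 17 without control replicate 1 (43.4% of all genes) and 14 without mutant replicate 4 (42.9%), beside 9 (34.4%). The other alternatives gave 5 or 6 higher and 9 to 11 lower calls. None of the 16 called members changed sign in any alternative. Among uncalled members, Kmt2b was at 0.00268 as reported, at -0.00173 with DESeq2's size factors, -0.0151 with DESeq2, -0.0115 with the lane as a term, -0.000472 with limma-voom and -0.00364 with no filter. Setd3 was at 0.0136 when each sample had to reach 10 counts, 0.00029 with limma-voom and 0.118 with library totals. With the length and GC offset, Hdac2 was at -0.0266, Hdac5 at 0.0368, Kdm3b at 0.108, Kdm4a at 0.0649, Kmt2c at 0.062, Kmt2d at 0.277 and Setd1b at 0.0928. With library totals, Kdm1b was at 0.021, Kdm3b at 0.036, Kdm4a at 0.057, Kdm4d at 0.0451, Kmt2d at 0.0912 and Setd6 at 0.0687. Leaving out 1 sample gave ranges of -0.0826 to 0.152 for Hdac10, -0.209 to 0.0348 for Kdm4d, -0.0744 to 0.157 for Kdm5a, -0.000412 to 0.184 for Kdm7a, -0.0661 to 0.119 for Kmt2b, -0.0955 to 0.0723 for Kmt2d, -0.0408 to 0.145 for Setd1a and -0.0468 to 0.0254 for Setd3, and of -0.052 to 0.136 for the log2 ratio of Hdac6 to Hdac10 and -0.158 to 0.0101 for that of Kmt2c to Kmt2d. The cause of these changes was not tested.

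Same-numbered samples of both groups were sequenced on the same lane (numbers 1 and 2 on lane 5), and the sources name no litter or other origin that they share. Correlations of same-numbered samples were between -0.07 and 0.21, and 1 of 4 controls correlated best with its own number. With the replicate number as a block the members gave 5 higher and 9 lower calls (34.1%, beside 35.8% of all genes in that fit). Kmt2b was then at -0.000555, and Kdm2a (adjusted p = 0.0504) and Kmt5b (0.0536) were no longer called. With 4 samples a group, the members' median standard error of 0.10 on the log2 scale limits the changes that can be called. In the shallowest control 3 counts correspond to 0.148 CPM, below every member.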
